A study of Mus musculus with 8 samples.

Results

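The JM11 pool is the formaldehyde-only experiment of an RNA polymerase II (Pol II) ChIA-PET study of mouse liver. It was described gene by gene, and set against the JM08 and JM12 pools of the study, whose chromatin was also fixed with EGS. The deposited table holds 1 row per paired-end tag (PET), which is a pair of sequenced DNA ends joined by ligation, and each row names its experiment. Selecting the rows marked JM11 gave 1438866 of 2753554 PETs (52.3%), from 2 libraries that are not told apart in the table. JM08 gave 474478 PETs from 4 libraries and JM12 gave 840210 PETs from 2 libraries.

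All groups were livers of wild type C57BL/6 mice aged 3-6 months, kept in 12 hours of light and 12 hours of dark with free access to food and water. The labels give livers at ZT06, the middle of the day, and at ZT18, the middle of the night, in each experiment. JM11 was fixed with 1% formaldehyde. JM08 and JM12 were fixed with 1.5 mM EGS and 1% formaldehyde. Each immunoprecipitation used the antibody 8WG16 and chromatin from 3-7 livers, so a pool averages several animals, all cell types of the liver and both times of day. In such bulk material, fewer cells of a type and less signal per cell cannot be told apart. The crosslinker differs between JM11 and the other pools together with everything else that differs between experiments, and the 2 cannot be told apart.

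Pol II transcribes the protein-coding genes of the nucleus, and in mammalian cells it gathers just around the start sites of active genes. The antibody 8WG16 binds the repeated tail of its largest subunit. In ChIA-PET, fragments held in one Pol II complex are joined through a linker, so that a PET records either the 2 ends of a single fragment or the ends of different fragments. Formaldehyde links proteins and DNA that touch, while EGS bridges protein to protein over a longer reach. Liver is made up mostly of hepatocytes, which transcribe plasma proteins, enzymes of urea and glucose metabolism, cytochromes P450 and the factors that control them at high rates.

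PETs with both ends on 1 chromosome at most 8 kb apart are called short PETs here, and all others are called other PETs. Of 1438852 nuclear PETs of JM11, 89658 were short, which is 6.23% (95% exact binomial interval 6.19% to 6.27%). The short share was 22.5% in JM08 and 14.8% in JM12. Most other PETs joined different chromosomes in every pool. Both ends lay on 1 chromosome in 73323 of 1349194 other PETs of JM11, 20676 of 367509 in JM08 and 42084 of 714287 in JM12. The median distance between the ends of a short PET was 376 bp in JM11 and 230 bp in JM08 and in JM12. Positions used by more than 1 PET were rare in JM11. They touched 1.48% of its other PETs, against 29.9% in JM08 and 7.57% in JM12. Counts per gene below are PET ends within a gene of the RefSeq annotation of GRCm38 and 2.5 kb either side, which is called the gene span. For comparisons between pools, PETs of each class were drawn at random to the number in the smallest pool, 89658 short and 367509 other PETs. With 1 pool per experiment there is no spread between replicates. Intervals cover counting error only, an exact permutation test of 2 pools against 1 cannot go below a two-sided p of 0.333, and no p-value is given. The only view of how much pools of one kind differ is the distance between JM08 and JM12.

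To show the kind of start sites the counts lie on, the 250 bases just upstream of 4 gene starts follow. They were copied from RefSeq (GRCm38.p6) and run 5′ to 3′ in the direction of transcription, with every CG dinucleotide in capitals. Pck1, the enzyme that starts gluconeogenesis, had the highest density of short PET ends of all genes in JM11 (chr2:173152823-173153072, plus strand). Cebpa encodes a transcription factor of hepatocytes and had a start rich in CG (chr7:35119043-35119292, plus strand). Alb, which encodes serum albumin, had the most short ends of the plasma protein genes and a start poor in CG (chr5:90460620-90460869, plus strand). Ndufa6, a subunit of respiratory complex I, was among the genes with the fewest other PET ends in JM11 relative to both other pools (chr15:82354292-82354541, minus strand).
Pck1: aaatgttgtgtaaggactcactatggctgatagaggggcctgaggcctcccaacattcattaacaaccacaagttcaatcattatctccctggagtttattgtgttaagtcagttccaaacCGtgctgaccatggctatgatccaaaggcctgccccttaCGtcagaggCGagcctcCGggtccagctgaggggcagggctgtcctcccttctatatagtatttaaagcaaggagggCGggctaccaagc
Cebpa: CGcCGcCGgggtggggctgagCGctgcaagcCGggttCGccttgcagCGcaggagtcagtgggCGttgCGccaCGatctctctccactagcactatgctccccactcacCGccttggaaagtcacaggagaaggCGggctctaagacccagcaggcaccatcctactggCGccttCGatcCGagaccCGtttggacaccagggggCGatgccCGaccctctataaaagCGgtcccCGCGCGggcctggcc
Alb: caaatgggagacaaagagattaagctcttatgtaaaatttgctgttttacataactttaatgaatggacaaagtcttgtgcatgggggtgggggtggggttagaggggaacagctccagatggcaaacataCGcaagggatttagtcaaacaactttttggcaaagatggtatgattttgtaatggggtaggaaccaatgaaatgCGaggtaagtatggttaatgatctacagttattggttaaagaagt
Ndufa6: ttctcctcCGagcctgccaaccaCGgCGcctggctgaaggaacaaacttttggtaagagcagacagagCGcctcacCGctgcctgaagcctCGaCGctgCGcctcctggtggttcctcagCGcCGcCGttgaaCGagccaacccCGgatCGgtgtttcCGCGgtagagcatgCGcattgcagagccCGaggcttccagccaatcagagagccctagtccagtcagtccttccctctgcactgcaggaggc
The windows held 5, 22, 2 and 18 CG dinucleotides, in this order, against a median of 10 over the 17492 promoters of the table, of which 92.6% held at least 1. In the Cebpa window JM11 had 9 short and 16 other PET ends at full depth. The Pck1 window had 3 and 9, that of Alb had 3 and 5, and that of Ndufa6 had 1 and 1. These counts are too small to rank the 4 windows, and the start site results below rest on all promoters together.

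Short PETs of JM11 were concentrated at gene starts, and its other PETs were so to a far smaller degree. Over the 17492 genes with a known strand, the density of ends within 1 kb of the start was taken relative to the mean over the genome. For short PETs this relative density was 10.2 in JM11, between 14.9 in JM08 and 7.13 in JM12. For other PETs it was 1.80 in JM11, against 5.25 in JM08 and 3.65 in JM12. JM11 therefore lay between the dual-fixed pools in the first class and below both in the second. At the peak, in bins of 250 bp, the JM11 density reached 20.7 for short PETs and 2.94 for other PETs. Within 1 kb of the annotated gene ends, the other PETs of JM11 had a density of 1.15, against 1.82 in JM08 and 1.55 in JM12. That is close to the 1.16 found in JM11 in the interior of genes over 10 kb long. At gene ends the short PETs had a density of 1.79 in JM11, 3.26 in JM08 and 2.08 in JM12.

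**Figure D1:**
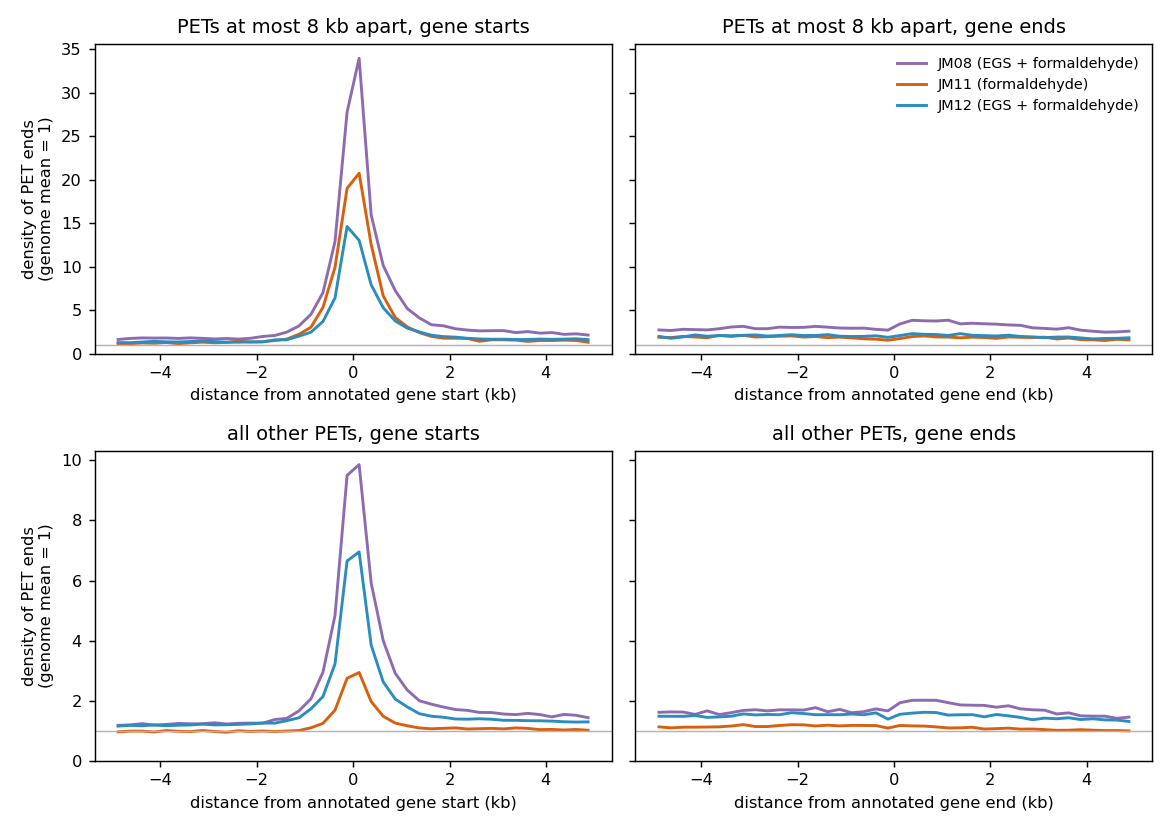
Density of PET ends (vertical axis, genome mean = 1) against distance from the annotated start or end of 17492 genes in kb (horizontal axis), in bins of 250 bp, for each pool at full depth. The JM11 line lies between the other pools at gene starts for short PETs (peak 20.7) and below both for other PETs (peak 2.94).

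The height at the start followed the CG content of the promoter in every pool. Promoters were divided by their CG dinucleotides in 300 bases into those with 0 to 5, with 6 to 20 and with 21 to 65. The short PETs of JM11 had densities of 1.75, 9.78 and 18.7 within 1 kb of these starts. Its other PETs had densities of 1.04, 1.81 and 2.54. In JM08 the other PETs had 1.61, 5.12 and 8.92, and in JM12 they had 1.21, 3.59 and 6.09. CG-poor starts thus stood close to the genome mean in the other PETs of JM11.

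Over whole gene spans, start sites included, the pools were compared as shares of ends. Gene spans cover 41.0% of the genome length spanned by the PETs. They held 58.7% of the short PET ends of JM11 (58.4% to 59.1%), against 67.2% in JM08 and 60.3% in JM12. For other PETs the shares were 47.8% in JM11 (47.7% to 47.9%), 51.8% in JM08 and 53.2% in JM12. JM11 was the lowest of the pools in both classes, but for short PETs it stood nearer to JM12 than JM12 did to JM08. Outside all gene spans the density of its other PET ends was 0.884 of the genome mean, against 0.816 in JM08 and 0.793 in JM12.

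The spread of density over genes was narrow in the other PETs of JM11. Of 21887 protein-coding genes, 57 reached 5 times the genome mean in JM11 at equal depth, against 1292 in JM08 and 418 in JM12. The 99th percentile of gene density was 3.45 in JM11, 12.1 in JM08 and 6.10 in JM12. Among short PETs the same percentile was 19.4 in JM11, above the 15.8 of JM12 and below the 37.3 of JM08. Genes at 5 times the mean numbered 2572 in JM11, 3891 in JM08 and 2497 in JM12 for that class. Across 10394 genes, the Spearman correlation between the short and the other PET density was 0.240 in JM11, 0.718 in JM08 and 0.585 in JM12. These are descriptions across genes of 1 pool each, which share the pool's libraries, gene lengths and base composition, and genes are not independent replicates.

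Pck1, Id3, Cebpa and Cebpb were among the genes of highest short PET density in JM11. Pck1 had 94 short ends in JM11, 178 in JM08 and 12 in JM12, a density of 127 in JM11. JM12 was far below the other pools at this gene. Cebpa had 51 short ends in JM11, 80 in JM08 and 18 in JM12 (density 101 in JM11). Its relative Cebpb, a factor induced in the acute-phase response, had 40, 53 and 14 in the same order of pools. Id3, an inhibitor of helix-loop-helix factors, had 44 in JM11, 68 in JM08 and 30 in JM12. At these 4 genes JM11 lay between the other pools.

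In the other PETs, the densest gene of JM11 was Sfi1, with 673 ends in JM11, 474 in JM08 and 641 in JM12 (density 32.6 in JM11). Sfi1 encodes a centrosomal protein. With all PETs scaled to the same depth its values were 618, 474 and 613 in the same order, so that JM11 and JM12 were close. Its span overlaps those of Gm51877 and Eif4enif1, and 1.01% of its JM11 ends lay in its densest 100 bp. Apoa1, Pck1 and Cebpa were also among the densest. Apoa1, the main protein of high-density lipoprotein, had 31 other ends in JM11, 104 in JM08 and 24 in JM12, and its span overlaps those of Sik3 and Apoc3. Pck1 had 48 in JM11, 215 in JM08 and 21 in JM12. Cebpa had 23, 94 and 38 in the same order, and was lowest in JM11.

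To ask which genes lose signal in JM11, genes with at least 30 ends summed over the 3 pools were compared. A gene was called lower where JM11 was at least 2-fold below the lower of JM08 and JM12, after adding 1 end to each count, and higher where it was at least 2-fold above the higher of them. For other PETs, 1256 of 10394 genes were lower (12.1%) and 18 were higher (0.173%). For short PETs, 234 of 3650 genes were lower (6.41%) and 67 were higher (1.84%). Many of these genes had few ends. A stricter count took only called genes whose exact 95% Poisson interval of PETs in JM11 did not overlap that of either other pool. It left 284 lower genes (2.73%) and 1 higher gene (0.00962%) for other PETs, and 2 lower and 2 higher genes (0.0548% each) for short PETs. The draw to equal depth sets aside most other PETs of JM11, so the calls were repeated with all PETs, scaled to the same numbers. At full depth 942 of 10262 genes were lower for other PETs (9.18%), 752 of them with intervals apart (7.33%). For short PETs, 210 of 3457 were lower (6.07%), 7 of them with intervals apart (0.202%). Of the genes lower after the draw, 672 of 1256 were also lower at full depth for other PETs, and 158 of 234 for short PETs. Of the 284 lower genes with intervals apart, 227 had them apart at full depth too. Most genes called lower with intervals apart were called for other PETs, and few of the short PET calls could be resolved. Of the genes called lower, 63 were lower in both classes, while 167 of the 234 were tested in both and lower for short PETs alone.

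Across all genes tested, the median log2 ratio of JM11 to the mean of the other pools was -0.26 for other PETs and -0.16 for short PETs. The short PET median was -0.21 against JM08 and 0 against JM12. Against JM12 alone, 403 genes were at least 2-fold lower for short PETs and 421 at least 2-fold higher. Ratios of gene groups below are to be read against these values. At equal depth a lower count over some genes is balanced by a higher count elsewhere, so the ratios are relative to the whole pool. Counts of a list are to be read against all genes tested, of which 49.4% had fewer other PET ends in JM11 than in both other pools and 12.1% were called lower. For short PETs these shares were 30.5% and 6.41%. A gene with a short span may reach 30 ends only through high counts in JM08 or JM12. In lists of short genes, the shares called lower and the shares below both other pools can therefore be partly set by this filter.

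Of 19 gene lists, 14 had a lower density of other PETs in JM11 than in both other pools, each with intervals that did not overlap. In 8 of these 14 the distance from JM11 to the nearer pool was also wider than the distance between JM08 and JM12 (log2 scale). These 8 were the cytochromes P450, clock genes, hepatocyte transcription factors, lipid synthesis, fatty acid oxidation, cytosolic ribosomal proteins, nuclear oxidative phosphorylation and Zfp zinc fingers. For short PETs JM11 was lowest in 8 of 19 lists, with overlapping intervals in each, and it lay between JM08 and JM12 in 10.

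**Figure D2:**
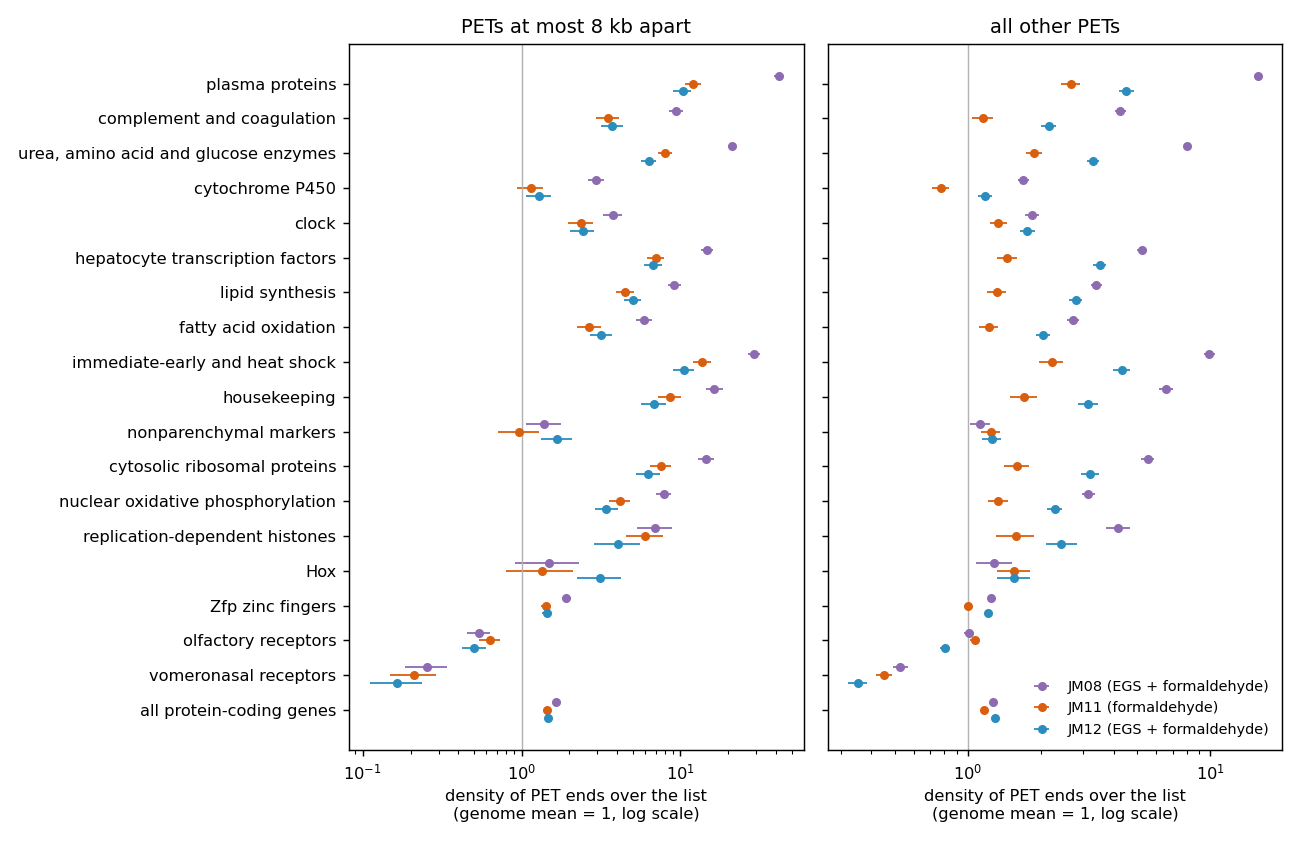
Density of PET ends over the spans of 18 gene lists and of all protein-coding genes (horizontal axis, genome mean = 1, log scale) in each pool at equal depth, with bars for the exact 95% Poisson interval of PETs. Of all 19 lists, JM11 lies between JM08 and JM12 in 10 for short PETs, Mup among them, and left of both in 14 for other PETs. The Mup list, whose genes are near-identical copies, is not drawn.

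Plasma protein genes encode the albumin, carriers and apolipoproteins that hepatocytes secrete. Over the 39 genes, the density of other PET ends was 2.66 in JM11 (2.43 to 2.91), 15.8 in JM08 and 4.51 in JM12. The log2 ratio of JM11 was -2.57 against JM08 and -0.76 against JM12, but JM12 was itself 1.80 below JM08 on this scale (log2 ratio -1.80). Of 34 genes tested, 30 had fewer ends in JM11 than in both other pools (88.2%, against 49.4% of all genes) and 9 were called lower (26.5%, against 12.1%). For short PETs the density was 12.0 in JM11 (10.6 to 13.6), 41.4 in JM08 and 10.3 in JM12, and 0 of 22 genes tested were called lower (at least 2-fold below both), against 6.41% of all genes. The log2 ratio of short PETs was -1.10 against the mean of the other pools, -1.78 against JM08 and 0.22 against JM12 (-0.04 to 0.48), so that its sign rests on JM08. Alb had 54 other ends in JM11, 409 in JM08 and 65 in JM12, and 48, 306 and 46 short ends. At full depth its other ends were 42.2 in JM11 and 75.1 in JM12, and it was called in neither class. JM08 was far above both. Trf, which encodes the iron carrier transferrin, had 32 other ends in JM11, 218 in JM08 and 49 in JM12. Ahsg, which encodes fetuin-A, had 25, 216 and 40 in the same order.

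Complement and coagulation genes make the clotting factors and complement proteins of the blood. Their density of other PETs was 1.15 in JM11 (1.04 to 1.27), 4.26 in JM08 and 2.16 in JM12, and 11 of 32 genes tested were lower (34.4%, against 12.1% of all genes). Fgg and Fga encode chains of fibrinogen. Fgg had 15 other ends in JM11, 116 in JM08 and 42 in JM12, and Fga had 9, 101 and 28 in this order. C3, the central complement component, had 9, 119 and 40. Each of these 3 genes was called lower, with Poisson intervals apart from those of both other pools. The short ends of these 3 genes were not called, with 20, 96 and 22 for Fgg in the same order. Of 20 genes tested for short PETs, 2 were lower (10.0%, against 6.41% of all genes), namely Fgb and Cpb2, which were singled out after their values were seen. Fgb, the third fibrinogen chain, had 8 short ends in JM11, 81 in JM08 and 19 in JM12. Cpb2, which slows the breakdown of clots, had 4, 22 and 10.

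Enzymes of urea, amino acid and glucose metabolism had a density of other PETs of 1.88 in JM11 (1.74 to 2.02), 8.06 in JM08 and 3.28 in JM12. Of 41 genes tested 13 were lower (31.7%, against 12.1% of all genes), 9 of them with intervals apart. Ass1, an enzyme of the urea cycle, had 27 other ends in JM11, 251 in JM08 and 98 in JM12 and was called lower. Its short ends numbered 62, 161 and 57 in the same order, so the difference from JM12 was seen for other PETs only at this gene, and the difference between the classes was not tested. Tat, which breaks down tyrosine, had 52 other ends in JM11, 269 in JM08 and 69 in JM12. Over the list, short PETs had a density of 7.97 in JM11, 21.04 in JM08 and 6.30 in JM12, and 4 of 36 genes were lower (11.1%, against 6.41% of all genes).

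Hepatocyte transcription factors include the HNF, CEBP and nuclear receptor families. Of 27 genes tested for other PETs, 26 had fewer ends in JM11 than in both other pools. Of the 27, 15 were called lower (55.6%, against 12.1% of all genes), 11 with intervals apart. The density was 1.45 in JM11 (1.32 to 1.59), 5.23 in JM08 and 3.50 in JM12. The log2 ratio against JM12 was -1.27, while JM12 differed from JM08 by -0.58. Hnf4a, a nuclear receptor that controls much of the hepatocyte program, had 27 other ends in JM11, 142 in JM08 and 77 in JM12. Rxra, the partner of many nuclear receptors, had 27, 76 and 122 in this order. Both were called lower with intervals apart, although JM08 and JM12 stood in opposite orders at the 2 genes. In short PETs the list had a density of 6.99 in JM11 and 6.70 in JM12, against 14.7 in JM08, and 1 of 25 genes was lower, 4.00% against 6.41% of all genes.

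Lipid synthesis genes had a density of other PETs of 1.31 in JM11 (1.20 to 1.43), 3.39 in JM08 and 2.79 in JM12, and 14 of 28 were lower (50.0%, against 12.1% of all genes). Fasn, the fatty acid synthase, had 23 other ends in JM11, 90 in JM08 and 59 in JM12. Dgat2, which makes triglycerides, had 23, 100 and 64, and Scd1, a desaturase, had 12, 79 and 45. All 3 were called lower with intervals apart. Fatty acid oxidation genes gave 1.22 in JM11, 2.72 in JM08 and 2.04 in JM12, with 14 of 24 lower (58.3%). Fabp1, which carries fatty acids in the cytosol, had 14 other ends in JM11, 133 in JM08 and 35 in JM12. Ppargc1a, a coactivator encoded by a gene of 661605 bp in this annotation, was not called, with 233, 205 and 232.

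Cytochrome P450 genes, which oxidise drugs, steroids and bile acid precursors, had other PET densities of 0.773 in JM11 (0.713 to 0.836), 1.70 in JM08 and 1.18 in JM12. JM11 thus stood below the genome mean here, and 9 of 38 genes were lower (23.7%, against 12.1% of all genes), none with intervals apart from both pools. Cyp2e1, which oxidises ethanol, had 14 other ends in JM11, 151 in JM08 and 27 in JM12. Cyp7b1, an oxysterol hydroxylase, had 8 short ends in JM11, 54 in JM08 and 28 in JM12 and was called lower for short PETs. Clock genes had other PET densities of 1.34 in JM11, 1.84 in JM08 and 1.76 in JM12, and 2 of 19 were lower for other PETs (10.5%), a share near that of all genes. Their median log2 ratio to the mean of the other pools was -0.90, and that of the cytochromes P450 was -0.96. Rora, a nuclear receptor of the clock, had 254 other ends in JM11, of 592 over the list, 216 in JM08 and 266 in JM12. Per2, a repressor of the clock, had 20, 55 and 36 other ends and 15, 32 and 31 short ends, and was called lower for short PETs after the draw but not at full depth. At full depth it was lower for other PETs. Both times of day are mixed in every pool, so no level of a rhythmic gene refers to a time.

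Immediate-early and heat shock genes, which respond within minutes to stimuli, had other PET densities of 2.22 in JM11 (1.98 to 2.48), 9.94 in JM08 and 4.31 in JM12. All 25 genes tested, of 36 listed, had fewer ends in JM11 than in both other pools, and 12 were called lower (48.0%). Among all genes these shares were 49.4% and 12.1%. Errfi1, a feedback inhibitor of EGF receptor signalling, had 49 other ends in JM11, 404 in JM08 and 87 in JM12, and 84, 277 and 54 short ends. In short PETs the list was denser in JM11 (13.7) than in JM12 (10.5), with a log2 ratio of 0.39 (0.10 to 0.68), and lower than in JM08 (28.9).

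Widely expressed genes gave the same order of pools. Other PET densities over housekeeping genes were 1.70 in JM11, 6.605 in JM08 and 3.15 in JM12, with 9 of 22 lower (40.9%, against 12.1% of all genes). For cytosolic ribosomal protein genes they were 1.59, 5.53 and 3.19, with 8 of 16 lower (50.0%), and for nuclear oxidative phosphorylation genes 1.34, 3.15 and 2.29, with 7 of 30 lower (23.3%). In short PETs these 3 lists had densities in JM11 of 8.59, 7.53 and 4.17, against 6.78, 6.29 and 3.42 in JM12. JM11 was the higher of these 2 pools in each list, though each interval of the ratio included no difference. Replication-dependent histone genes had 1.58 in JM11, 4.18 in JM08 and 2.44 in JM12 for other PETs, with 6 of 12 lower (50.0%). For short PETs they had 5.98, 6.94 and 4.06. H1f4, a linker histone gene whose span overlaps that of H2bc6, was called higher for short PETs (26 ends in JM11, 12 in JM08, 6 in JM12) and lower for other PETs (5, 31 and 12). Its intervals overlapped those of another pool in both classes, and at full depth it was not called for other PETs. Only 16 of the 76 ribosomal protein genes and 12 of the 67 histone genes reached 30 ends for other PETs.

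Hox genes and the receptor families of the nose did not stand below both other pools in the other PETs of JM11. Hox genes, which pattern the body axis, had other PET densities of 1.55 in JM11 (1.32 to 1.80), 1.29 in JM08 and 1.55 in JM12, and 0 of 4 tested were lower. Olfactory receptor genes had 1.07 in JM11 (1.02 to 1.11), 1.01 in JM08 and 0.805 in JM12, the only list in which JM11 was above both other pools. Vomeronasal receptor genes had 0.452 in JM11, 0.525 in JM08 and 0.351 in JM12. Of the 1109 olfactory and 353 vomeronasal genes only 2 and 6 reached 30 ends, and these families, like the Mup genes of major urinary proteins, hold near-identical copies between which ends can be misplaced. Zfp zinc finger genes stood at 0.999 in JM11, 1.25 in JM08 and 1.21 in JM12, below both. Of 136 tested 17 were lower, a share near the 12.1% of all genes tested.

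The label of the tissue was checked against markers. Alb, Apoa1 and the other plasma protein genes were at 12.0 times the genome mean in the short PETs of JM11. Over 26 markers of Kupffer, endothelial, stellate and bile duct cells the density was 0.969 in JM11 (0.710 to 1.29), 1.39 in JM08 and 1.67 in JM12, and 6 of the 26 had no short end in JM11. For other PETs these markers had 1.25 in JM11, 1.12 in JM08 and 1.26 in JM12, and 2 of 15 tested were lower, a share (13.3%) near the 12.1% of all genes. Reln, a stellate cell marker, had 178 other ends in JM11, 143 in JM08 and 132 in JM12. This gene is 460252 bp long and held 178 of the 480 other ends and 36 of the 91 short ends of the list in JM11. The spans of the 26 markers cover 1425 kb, and those of the 39 plasma protein genes cover 678 kb. Over all genes, short PET density in JM11 was 3.01 under 10 kb and 1.08 at 300 kb or more. The contrast between markers and plasma protein genes was not adjusted for gene length. Stab2, an endothelial marker, had 48, 47 and 71 other ends in the same order. Its short ends, 4, 14 and 22, were called lower, with overlapping intervals. Csf1r, a Kupffer cell marker, had 6, 15 and 22 other ends and was called lower after the draw but not at full depth. Signal over the 26 markers was close to the genome mean in the short PETs of JM11. In its other PETs it was above that mean (interval 1.14 to 1.36).

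Genes were then ranked without using JM11, by their density of short PET ends in JM12 or in JM08. Genes with an end were cut into 10 classes of equal size, and JM11 was set against the pool not used for the ranking. In the top class of 1578 genes ranked in JM12, the other PETs had a density of 1.82 in JM11 and 6.29 in JM08. In the top class of 1510 genes ranked in JM08 they had 1.93 in JM11 and 3.81 in JM12. Short PETs in the same top classes had 8.16 in JM11 against 17.3 in JM08, and 9.14 in JM11 against 7.68 in JM12. In the lowest class of genes with an end in JM12, the other PETs of JM11 had 1.05 and those of JM08 had 0.990. In classes 2 and 3 of this ranking JM11 had 1.24 and 1.26, and JM08 had 1.11 and 1.13. In the 6110 genes without a short end in JM12, JM11 had 0.693 and JM08 had 0.799. In the genes ranked by JM12, the other PETs of JM11 were thus below those of JM08 where short PETs were dense. They were slightly above them in the lowest classes with an end, and below them in genes with none.

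**Figure D3:**
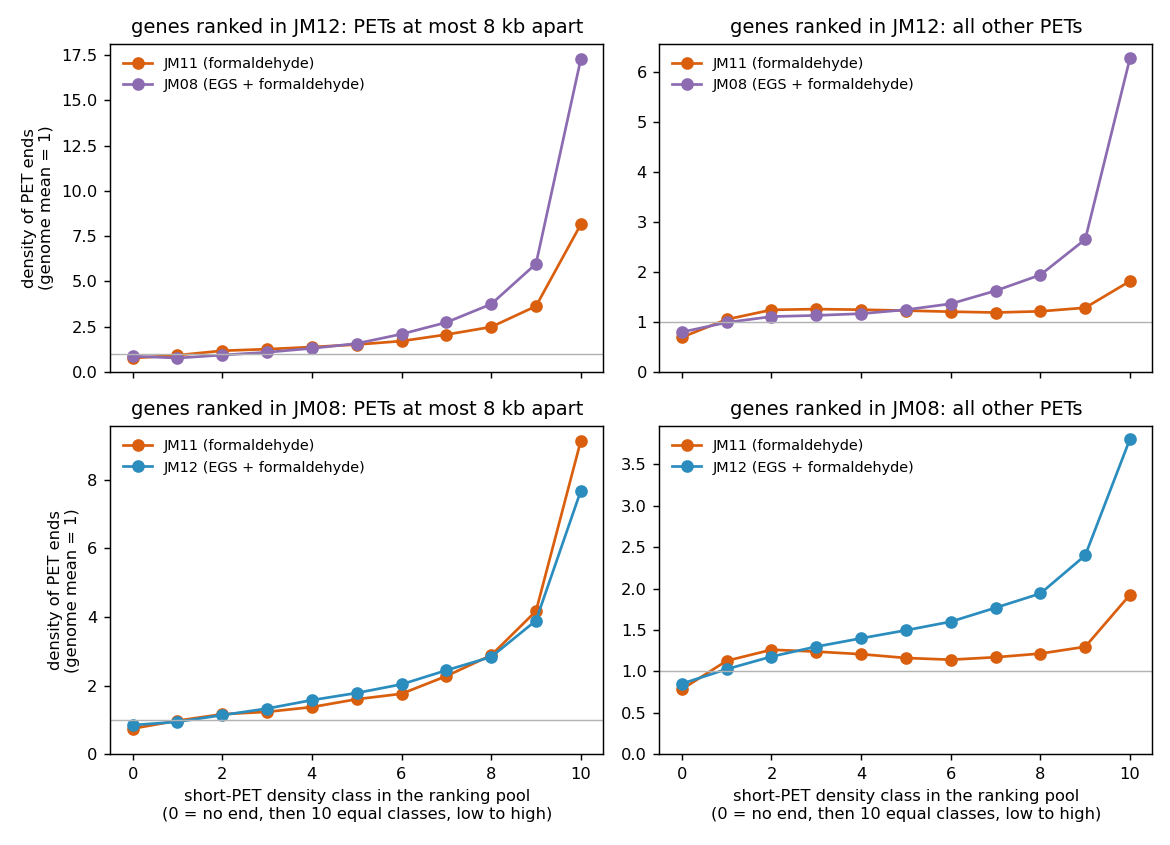
Density of PET ends (vertical axis, genome mean = 1) over genes grouped by their short PET density in JM12 (upper panels) or JM08 (lower panels), from no end (0) to the densest of 10 equal classes (10), in JM11 and in the pool not used for ranking. For other PETs the JM11 line stays between 0.693 and 1.93, while JM08 reaches 6.29 and JM12 reaches 3.81.

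Gene length divided the results as well. For genes under 10 kb long, the log2 ratio of other PET ends was -0.98 against JM08 and -0.57 against JM12. Of 748 tested genes 339 were lower (45.3%, against 12.1% of all genes). For genes of 10 to 30 kb it was -0.69 and -0.53, with 630 of 2643 lower (23.8%). The deficit shrank with length, to -0.19 and -0.29 at 30 to 100 kb, and the ratios were 0.10 and -0.10 at 100 to 300 kb. At 300 kb or more the ratio was 0.23 against JM08 and 0.18 against JM12, and 0 of 557 genes were lower (0%). Of the 557, 365 were above both other pools, against 2132 of all 10394 genes tested. Of 7925 genes under 10 kb only 748 reached 30 ends, whereas all 557 of 300 kb or more did. Short genes can pass this filter through high counts in JM08 or JM12. The shares called lower are therefore not comparable between length classes. The log2 ratios do not use the filter. Among short PETs the ratio against JM08 went from -0.73 under 10 kb to 0.50 at 300 kb or more, whereas against JM12 it was 0.18 and 0.08 in these classes. Between them the short PET ratio against JM12 was -0.13 at 30 to 100 kb and -0.12 at 100 to 300 kb, with intervals below 0.

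**Figure D4:**
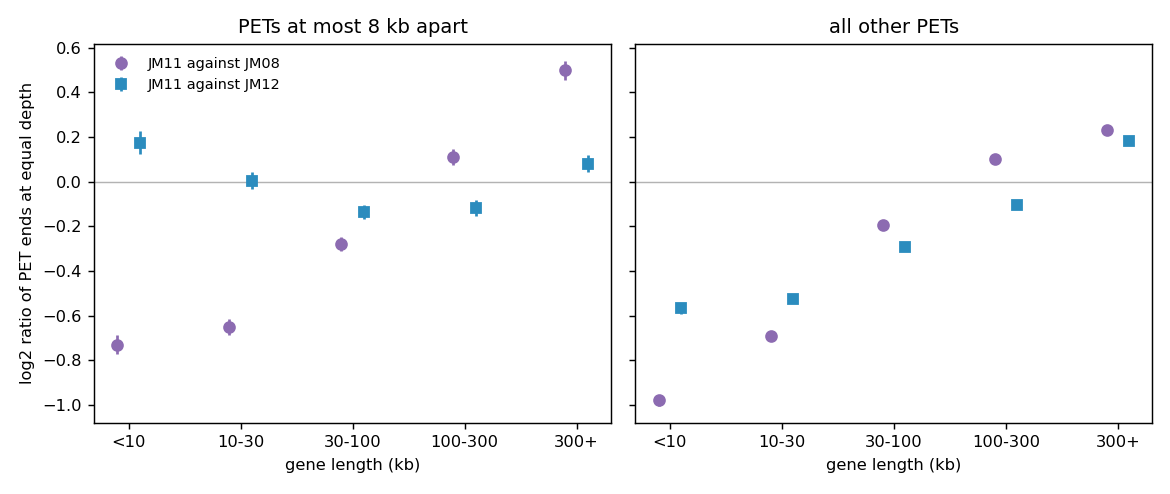
Log2 ratio of PET ends at equal depth (vertical axis) by gene length in kb (horizontal axis), for JM11 against JM08 (circles) and against JM12 (squares), with bars for the 95% interval of counting error, most of them smaller than the symbol. For other PETs both series rise from below -0.5 under 10 kb to about 0.2 at 300 kb or more.

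The lowest single genes in the other PETs were chosen by their ratio after the draw, which took 1 of many possible samples of the JM11 PETs, so their drawn counts lie below those at full depth. Rps21, a ribosomal protein gene, had 0 ends in JM11, 20 in JM08 and 10 in JM12, and its full-depth value in JM11, scaled to the same number of PETs, was 1.63. Serpina1c, one of several near-identical antitrypsin genes, had 0, 33 and 9 after the draw and 1.63 in JM11 at full depth. A count of 0 allows up to 3, and no fold is given for these 2 genes. Ndufa6 had 1 in JM11, 32 in JM08 and 16 in JM12, with 4.90 in JM11 at full depth. Cebpd, another CEBP factor, had 1, 27 and 16, with 4.36 at full depth. Sar1b, which carries lipoproteins out of the endoplasmic reticulum, had 2, 25 and 28, with 8.72 at full depth. Paqr7, Tnfaip1, Babam1, Eps8l1 and Nsmf had 1 end each in JM11 after the draw, between 15 and 21 in JM08 and between 15 and 19 in JM12. Their full-depth values in JM11 were between 3.27 and 7.35. Of these 10 genes 8 were also called lower at full depth, 7 of them with intervals apart from both pools. Rps21 then had too few ends to be tested, and Eps8l1 was not called. The spans of several, Ndufa6 among them, overlap neighbouring genes that share the ends.

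For short PETs the genes of lowest ratio had 0 or 2 ends in JM11. Kifc3, a kinesin gene, had 0 in JM11, 15 in JM08 and 28 in JM12. Crebzf, Xrra1, Dalrd3, Fis1, Habp2, Ggact and Irs2 also had 0, with 16 to 22 ends in JM08 and 10 to 14 in JM12. Lnx2 and Fah had 2. Fah, the last enzyme of tyrosine breakdown, had 38 short ends in JM08 and 18 in JM12, and its other PETs were lower as well, with 10 in JM11, 73 in JM08 and 33 in JM12. None of these 10 genes had short PET intervals apart from both pools after the draw. At full depth 7 of them were again called lower, Kifc3 and Habp2 with intervals apart, and Crebzf, Xrra1 and Dalrd3 had too few ends to be tested. After the draw, 2 other genes had them apart and were singled out after their values were seen. Scp2, a sterol carrier and peroxisomal thiolase gene, had 10 short ends in JM11, 88 in JM08 and 50 in JM12. Bcar3, an adaptor of Src signalling, had 6, 34 and 40.

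Genes higher in JM11 were few. For short PETs the highest ratio was at Adamtsl3, which encodes a matrix protein, with 42 ends in JM11, 8 in JM08 and 10 in JM12. Rps6ka2, Sirt4, Rev3l, Pth2r, Ccser2, Blm, Rbl2, Themis and Fshr followed, with 20 to 34 ends in JM11, 2 to 8 in JM08 and 2 to 8 in JM12. Of these, Adamtsl3 alone had intervals apart from both pools. The other gene that did, Lrp1b, a lipoprotein receptor gene singled out after its values were seen, had 156 in JM11, 66 in JM08 and 62 in JM12. The median length of the 67 higher genes was 163 kb, against 59.4 kb for the 234 lower genes. For other PETs the highest ratio was at Ddx43, a helicase gene, with 25 ends in JM11, 7 in JM08 and 8 in JM12, the only higher gene with intervals apart. Eqtn, Gpr63, Rgs13, Gucy1a1, Kcnk12, Grrp1, Smc2, Samd3 and Psma8 followed with 17 to 36 ends in JM11 and 6 to 16 in each other pool. At full depth these calls did not hold for other PETs, where 0 of 10262 genes were at least 2-fold above both pools, and Ddx43 had 14.7 in JM11, 7 in JM08 and 9.26 in JM12. For short PETs, 57 of 3457 genes were higher at full depth, the 10 named above among them, with intervals apart at Rps6ka2 alone.

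The short class also shrinks as a whole in JM11, which a draw to equal numbers of short PETs removes. When the same total number of PETs was drawn from each pool, so that the 6.23% share of short PETs was kept, 1382 of 2580 genes were lower for short PETs. The plasma protein genes then had a log2 ratio of -3.05 (-3.40 to -2.72) against the mean of the other pools. The relative pattern over genes given above and this overall difference are separate measurements.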

How the data were processed

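The submitters deposited 1 table without a header, with a row per PET. Per the submitters' processing notes, reads were aligned with Bowtie2 to mm10, and no version, filter or rule for duplicates is stated. The columns used are the chromosome and position of both ends, the linker and the experiment. Other value columns were not used to define classes, and rows carry neither library nor time of day. The authors' deposited distance is larger than the gap between positions, by 21 bp at the median, so positions were used.

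PETs with a mitochondrial end were set aside. Ends were counted in 21887 protein-coding genes of RefSeq (GRCm38.p6) with 2.5 kb either side, using Python 3.11.15, numpy 2.4.6, pandas 2.3.3, scipy 1.17.1 and matplotlib 3.10.9. Strand and promoter sequence were known for 17492 genes. PETs were drawn at random to 89658 short and 367509 other PETs per pool (seed 11), and 3650 and 10394 genes with at least 30 ends were compared, with a pseudocount of 1 end and a fold of 2. Calls were repeated at full depth, with all PETs scaled to these numbers. Relative density is ends per kb over the mean per kb of a genome of 2722 Mb. Sums over a list count the union of its spans, and intervals are exact at 95% on PETs, since both ends of a PET are not independent. Counting and calling were tested on simulated data. The members and lists were chosen with earlier results of these data known. Genes named are the 3 members of each list with the most short ends, the 10 lowest and 10 highest ratios and the 5 highest JM11 densities in each class, of which some are not reported here. Alternatives varied the span, the distance limit, the filter, the fold, the pseudocount, the draw, the linker subset, the pools compared and the unit counted.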

Additional observations from a re-analysis of the deposited data

Results flagged for a closer look

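Mitochondrial PETs lie outside the gene counts and were looked at because they exceed the 3 counts that a count of 0 allows. JM11 had 14 PETs with a mitochondrial end, against 12 in JM08 and 2239 in JM12. These are unscaled counts, out of 1438866 PETs in JM11, 474478 in JM08 and 840210 in JM12. JM12 had the most, and the cause was not tested.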

How the results depend on the processing

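No paired analysis was possible because the rows name an experiment only, with no library, replicate number or time point. Intervals reflect counting error alone, and few of the short PET calls can be resolved at this depth. Of 998 log2 ratios of lists and length classes under the alternatives, 818 stayed within the interval of the main value and 5 reversed. Of 576 ratios of named genes, 431 moved by less than 1 on the log2 scale and 10 reversed. The cause of each change below was not tested, except where fewer PETs or genes enter by construction. Several alternatives, those on gene starts, on higher genes and on list ratios among them, were chosen after seeing the data.

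The share of JM11 ends in gene spans was 51.8% (short) and 44.5% (other) with no flank, 60.7% and 50.0% with 5 kb, 32.9% and 29.3% over genes that overlap no other span, and 48.0% for other PETs with unshared positions. In the ATGT linker subset of JM11 it was 59.7% and 48.5%, and in the TAAG subset 58.1% and 47.6%. The density at gene starts was 11.1 and 2.39 in the ATGT subset, 9.55 and 1.64 in the TAAG subset, and 7.39 and 1.54 over genes that overlap no other span.

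The number of genes tested changes with the setting and is given with each count. Genes lower for short PETs (234 of 3650) numbered 51 of 768 and 115 of 1565 in the ATGT and TAAG subsets. The count was 83 of 1803 without overlapping genes and 34 of 1102 with each PET counted once. At an equal total number of PETs it was 1382 of 2580. By filter it was 751 of 7985 with at least 15 ends, 36 of 1077 with at least 60 and 2221 of 21887 with none. Among the 3650 genes it was 505 at a fold of 1.5, 102 at a fold of 3 and 117 with a pseudocount of 5. Against JM08 alone it was 843 of 3650, and against JM12 alone 403 of 3650. Genes lower for other PETs (1256 of 10394) numbered 636 of 8743 in the ATGT subset and 1495 of 10368 in the TAAG subset. The count was 738 of 8343 with no flank and 380 of 4816 without overlapping genes. By filter it was 2101 of 15157 with at least 15 ends, 407 of 5234 with at least 60 and 2897 of 21887 with none. Among the 10394 genes it was 2510 at a fold of 1.5, 378 at a fold of 3 and 659 with a pseudocount of 5. Against JM08 alone it was 2309 of 10394.

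Genes higher for short PETs (67 of 3650) numbered 18 of 768 and 38 of 1565 in the ATGT and TAAG subsets. The count was 40 of 1803 without overlapping genes and 8 of 1102 with each PET counted once. At an equal total number of PETs it was 0 of 2580. By filter it was 251 of 7985 with at least 15 ends, 8 of 1077 with at least 60 and 1544 of 21887 with none. Among the 3650 genes it was 256 at a fold of 1.5, 9 at a fold of 3 and 23 with a pseudocount of 5. Against JM08 alone it was 368 of 3650, and against JM12 alone 421 of 3650. Genes higher for other PETs (18 of 10394) numbered 11 of 10410 with a limit of 4 kb and 11 of 7617 with unshared positions. The count was 0 of 10262 at full depth and 28 of 11068 at an equal total number. By filter it was 80 of 15157 with at least 15 ends, 3 of 5234 with at least 60 and 523 of 21887 with none. Among the 10394 genes it was 167 at a fold of 1.5, 0 at a fold of 3 and 3 with a pseudocount of 5. Against JM08 alone it was 280 of 10394, and against JM12 alone 117 of 10394.

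The log2 ratio of plasma protein genes for short PETs (-1.10) was -1.52 without overlapping genes, -1.78 against JM08 alone, 0.22 against JM12 alone and -3.05 at an equal total number. For other PETs (-1.93) it was -1.48 in the ATGT subset, -2.14 in the TAAG subset, -2.24 without overlapping genes, -2.57 against JM08 alone, -0.76 against JM12 alone and -1.76 at an equal total number. At an equal total number the short PET log2 ratio to JM12 also turned for enzymes of urea, amino acid and glucose metabolism (-0.85), immediate-early and heat shock genes (-0.75), genes under 10 kb (-1.10) and genes of 300 kb or more (-1.18, and -1.38 to JM08). It turned there too for Pth2r (-0.74), Ccser2 (-0.21), Rbl2 (-0.85) and Fshr (-0.85) relative to the higher pool. For other PETs, Gucy1a1 turned with a limit of 4 kb (-0.12), in the ATGT subset (-0.49) and with another draw (-0.064). Eqtn turned with a limit of 20 kb (-0.14), and Grrp1 (-0.68) and Smc2 (-0.12) with unshared positions.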

Other observations

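The linker sequence divides JM11 into a subset of 329515 PETs with ATGT (22.9% of the pool) and one of 1109337 with TAAG. The sources do not tie a linker to a library, so these are values of subsets and not of time points. Short PETs made up 10.9% of the ATGT subset and 4.84% of the TAAG subset, whereas both subsets of JM12 held 14.7% and 14.9% in the same order. Over several lists of genes active in liver, the other PETs were denser in the ATGT subset. Plasma protein genes had a density of 3.66 (3.36 to 3.99) in ATGT and 2.29 (2.16 to 2.42) in TAAG. Hepatocyte transcription factors had 1.87 (1.70 to 2.06) and 1.30 (1.22 to 1.38), and immediate-early and heat shock genes had 3.03 (2.72 to 3.38) and 2.03 (1.90 to 2.18). Olfactory receptor genes had 1.00 (0.957 to 1.05) and 1.07 (1.04 to 1.10), and markers of nonparenchymal cells had 1.28 (1.16 to 1.41) and 1.20 (1.14 to 1.27). For short PETs the intervals of the 2 subsets overlapped for plasma protein genes, with 12.3 (10.2 to 14.8) in ATGT and 11.8 (10.1 to 13.8) in TAAG.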
